A study of Mus musculus with 4 samples.

Results

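The genes of sterol synthesis, uptake and efflux were examined in dendritic cells (DC) that were either immature or modulated by natural killer T (NKT) cells. The members were 36 named genes, taken as the brightest probe set (by mean signal over the 4 arrays) annotated with that gene alone. Of these, 31 were measured, out of 12384 genes in all; Acat2, Insig1, Nr1h2, Osbpl3 and Soat1 were not analysed here. The samples were DC grown from bone marrow of C57BL/6 mice, antigen-presenting cells of the immune system, with 2 arrays of immature DC and 2 of NKT-modulated DC. The design text says that the RNA came from CD11c cells and calls the control DC untreated; the sources used here do not give the NKT cell source, any added agent, the ratio of cells or the duration. The design text speaks of experiments done in triplicate and repeated, but not of how the 2 arrays of a group relate to these or whether they came from separate cultures, so the p-values rest on an array-to-array spread that may be technical.

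As background, cells make cholesterol from acetyl-CoA in a long chain of enzymes, first to farnesyl diphosphate through mevalonate and then to sterols through squalene. When sterol in the endoplasmic reticulum runs low, SCAP carries the SREBP transcription factors to the Golgi for activation, and SREBP2 then drives most genes of the chain; INSIG proteins hold SCAP back when sterol is plentiful. Oxysterols activate the liver X receptors (LXR), which drive genes of cholesterol efflux and of lipoprotein receptor breakdown. In DC and macrophages both programmes are known to be linked to interferon and inflammatory signals.

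Transcripts of sterol synthesis were mostly lower in NKT-modulated DC, whereas those of the 5 LXR targets among the members were not called in either direction. Of 9 further LXR targets outside the membership, described below, 2 were called higher. Of 31 measured members, 14 fell and 2 rose at an adjusted p under 0.05 (limma). Among all 12384 genes, 7.63% were lower and 6.35% higher by the same rule. Of 18 measured SREBP2 targets, 12 fell and 1 rose, with a median log2 difference of -0.88, beside -0.04 over all genes. Of 5 LXR targets 0 rose and 0 fell, with a median of 0.15; at an unadjusted p under 0.05, 1 was higher and 1 lower. The difference between these lists was not tested, and the members were chosen with earlier results of these data known. In bulk RNA, fewer cells that express a gene and less of its RNA per cell cannot be told apart.

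**Figure D1:**
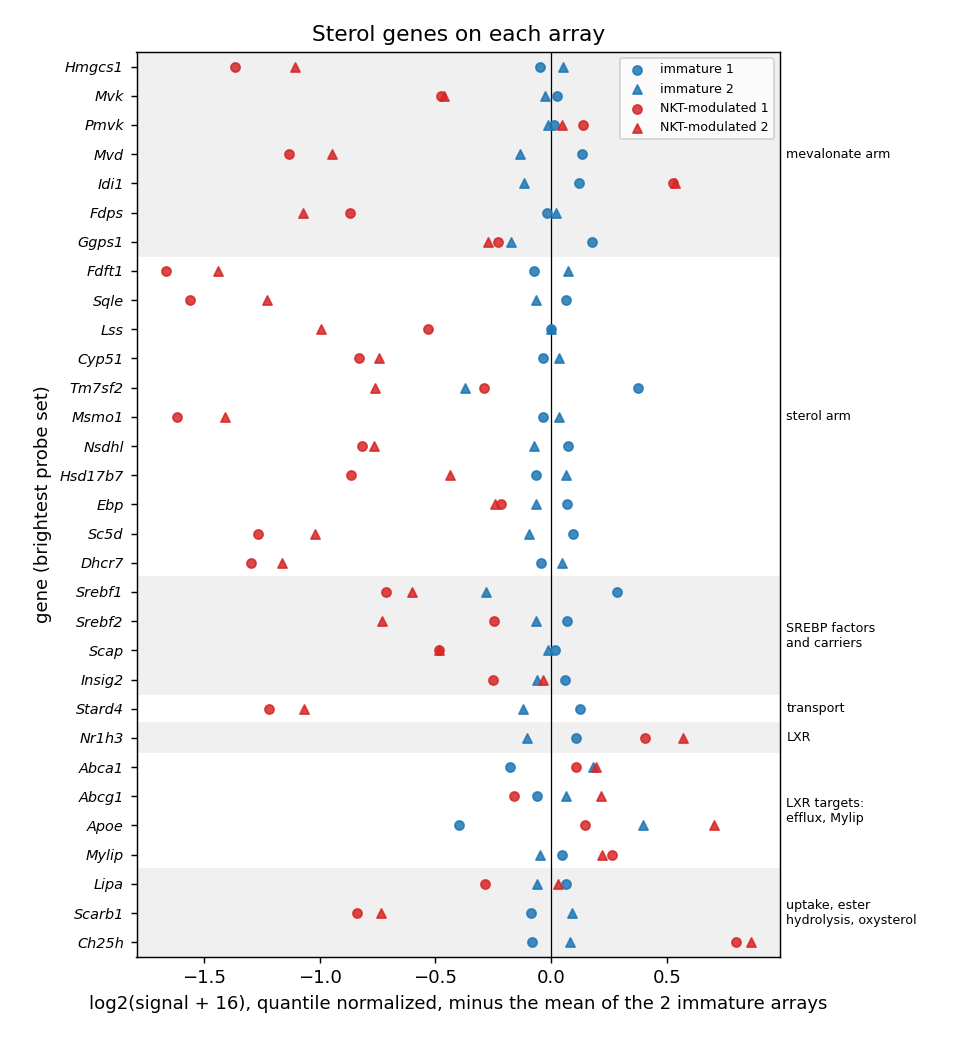
Level of each member on each array, as log2(signal + 16) after quantile normalization minus the mean of both immature arrays, ordered by role. Both NKT-modulated arrays (red) lie left of both immature arrays (blue) for most enzymes, Idi1 and Ch25h lie to the right, and Abca1, Abcg1 and Apoe overlap.

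Signals are given as deposited, on a linear scale without a shared unit between probe sets. Overlap between groups was read on these deposited signals unless stated. Differences are on the log2 scale of signal plus 16 after quantile normalization, NKT-modulated minus immature, as value ± SE with n = 2 arrays per group. The arrays correlated at 0.987 and 0.985 within groups and at 0.960 to 0.965 between groups (Pearson, over probe sets). Of the DC markers, Itgax and Cd74 were bright in both groups. The integrin gene Itgax (CD11c) had signals of 5442 and 5537 on the immature arrays, against 5253 and 4643 on the NKT-modulated ones. Cd74, the MHC class II invariant chain, had 12968 and 11784 against 14535 and 12529.5. The macrophage and monocyte marker Csf1r was bright too, with 11978 and 9675 against 12410 and 11078. The brightness of these genes thus does not tell DC from macrophages. Of 12 DC markers, 3 were called higher and 0 lower. Those 3 were the transcription factor genes Batf3 (1.74 ± 0.09, adjusted p = 0.000214) and Irf4 (1.14 ± 0.08, adjusted p = 0.000746) and the costimulatory gene Cd86 (0.85 ± 0.10, adjusted p = 0.00358). Flt3, a growth factor receptor gene of DC, had -0.54 ± 0.16 (adjusted p = 0.0758) with no overlap. T and NKT cell markers also moved: 11 of 16 measured rose and 0 fell, and their summed signal was 1383 to 1480 in immature and 6902 to 8693 in NKT-modulated arrays. Cd3d, a chain of the T cell receptor complex, had signals of 5.38 and 5.58 on the immature arrays, against 304 and 205 on the NKT-modulated ones. No T or NKT marker was under a signal of 16 on every array. Of the other cell types listed, 2 of 8 neutrophil markers rose, 1 of 7 B cell markers rose, and 2 of 9 macrophage and monocyte markers rose while 3 fell. For scale, 6.35% of all genes were called higher and 7.63% lower. The part of these markers in the results below was not tested.

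The first steps, from acetyl-CoA to farnesyl diphosphate, moved unevenly. Of 7 measured enzymes, counting Ggps1 of a side branch, 3 were lower and 1 higher, beside 7.63% and 6.35% of all genes. Hmgcs1, which makes HMG-CoA, had signals of 6212 and 6975 on the immature arrays, against 2622 and 3044 on the NKT-modulated ones. It fell by 1.24 ± 0.11 (adjusted p = 0.00134), or 2.36-fold, and the groups did not overlap. Mvd, which makes isopentenyl diphosphate, had signals of 872 and 826 on the immature arrays, against 335 and 375 on the NKT-modulated ones and fell by 1.04 ± 0.14 (adjusted p = 0.00614). Fdps joins isoprene units into farnesyl diphosphate. Its signals were 933 and 1086 on the immature arrays, against 488 and 414 on the NKT-modulated ones, a fall of 0.97 ± 0.12 (adjusted p = 0.00383). Both NKT-modulated arrays again lay below both immature arrays, but over the mean of its probe sets the difference was -0.43 and the call was lost (adjusted p = 0.230).

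Idi1 went the other way. It encodes the isomerase that acts between Mvd and Fdps, and its signals were 4857 and 4543 on the immature arrays, against 7155 and 6777 on the NKT-modulated ones. It rose by 0.53 ± 0.10 (adjusted p = 0.0193), or 1.44-fold, with no overlap between groups. The other Idi1 probe set, with signals of 4189.7 and 5130.3 against 7309.9 and 5758, had a difference of 0.44 ± 0.11 (adjusted p over all probe sets = 0.0622). The mouse genome holds a close paralog, Idi2, which these probe sets may not separate. The Idi1 call was lost without NKT-modulated replicate 1 (adjusted p = 0.0953), without NKT-modulated replicate 2 (adjusted p = 0.0966) and without the intensity trend of the variance (adjusted p = 0.123); its difference stayed between 0.42 and 0.76 over 14 alternatives.

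The mevalonate kinases were not called. Mvk, which phosphorylates mevalonate, had signals of 243 and 265 on the immature arrays, against 155 and 149.9 on the NKT-modulated ones, a difference of -0.47 ± 0.17 (adjusted p = 0.130). These groups did not overlap, as was true of 38.4% of all genes on the side lower in NKT-modulated DC. Pmvk, the next kinase, had deposited signals of 884 and 986 against 937 and 868, which overlapped. After normalization its NKT-modulated values (9.95 and 9.87) lay above its immature ones (9.83 and 9.80). Its 95% interval, on the normalized scale, ran from -0.14 to 0.32. Ggps1 leads away from sterols, to geranylgeranyl diphosphate for protein prenylation; its signals were 245 and 214 against 167 and 156 and its difference -0.25 ± 0.20 (adjusted p = 0.469). One of its 3 other probe sets lay on the other side of 0, at 0.30.

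The sterol branch, from farnesyl diphosphate on, held the steepest falls. Of 11 measured enzymes, 8 fell and 0 rose, beside 7.63% of all genes lower and 6.35% higher. In all 11 both NKT-modulated signals as deposited were below both immature signals, as in 38.4% of all genes. After normalization the groups of Tm7sf2 overlapped, with 9.31 and 8.56 on the immature arrays against 8.64 and 8.17 on the NKT-modulated ones. Fdft1, squalene synthase, commits the chain to sterols; its signals were 1695 and 2114 on the immature arrays, against 542 and 626 on the NKT-modulated ones. It fell by 1.55 ± 0.12 (adjusted p = 0.000804), or 2.93-fold, and only 62 of the 12384 genes had a lower difference. Over the mean of its probe sets the Fdft1 difference was -0.74 (adjusted p = 0.0375). Sqle, squalene epoxidase, a known control point of the branch, had 3435 and 3522 against 1131 and 1413 and fell by 1.39 ± 0.13 (adjusted p = 0.00161). Msmo1, which acts in the removal of methyl groups from the sterol ring, had signals of 3464 and 4050.2 on the immature arrays. Its NKT-modulated arrays had 1184 and 1347. It fell by 1.51 ± 0.10 (adjusted p = 0.000504), the smallest adjusted p among the members.

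Ring closure and the demethylation steps gave smaller falls in Lss, Cyp51 and Nsdhl. Lss, which closes the ring to give lanosterol, had signals of 725 and 828 against 470.5 and 332 and fell by 0.76 ± 0.17 (adjusted p = 0.0338). The Lss call was lost without immature replicate 1 (adjusted p = 0.116), without immature replicate 2 (adjusted p = 0.116), without NKT-modulated replicate 2 (adjusted p = 0.0965), without the intensity trend (adjusted p = 0.112) and over the mean of its probe sets (adjusted p = 0.0844). Cyp51, the lanosterol demethylase, had 1894 and 2252 against 1092 and 1140.3 and fell by 0.79 ± 0.09 (adjusted p = 0.00302). Nsdhl, which works in the same demethylation complex as Msmo1, had 1851 and 1918 against 996 and 1017 and fell by 0.79 ± 0.09 (adjusted p = 0.00383); without the intensity trend it had adjusted p = 0.0504. These enzymes moved by less than Msmo1 did, though the difference between genes was not tested.

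Sc5d and Dhcr7, which act late in the branch, fell by more than 2-fold. Sc5d, a sterol desaturase, had signals of 1122 and 1108 on the immature arrays, against 409.7 and 479 on the NKT-modulated ones. It fell by 1.14 ± 0.13 (adjusted p = 0.00355), or 2.21-fold, and the call was lost over the mean of its probe sets (-0.85, adjusted p = 0.0666). Dhcr7, the reductase that ends one route to cholesterol, had 658 and 795 against 252 and 271, a fall of 1.23 ± 0.13 (adjusted p = 0.00228). The groups of both genes were well apart.

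The 3 enzymes of this branch that were not called had smaller differences or a wider spread. Hsd17b7, a ketoreductase of the demethylation complex, had signals of 438 and 547 against 228 and 306 and a difference of -0.65 ± 0.18 (adjusted p = 0.0667). It was called among probe sets with a mean signal of at least 100 (adjusted p = 0.0254) and without further normalization (adjusted p = 0.0343). The other Hsd17b7 probe set, with a mean signal of 312, had -0.22 ± 0.21 (adjusted p over all probe sets = 0.586). Over the 14 alternatives the Hsd17b7 difference ran from -0.86 to -0.44. Ebp, the sterol isomerase, had 2135 and 2216 against 1813 and 1729, a difference of -0.23 ± 0.09 (adjusted p = 0.154) with a 95% interval of -0.44 to -0.01. Tm7sf2, a sterol reductase, had 615 and 414 against 358 and 248; its immature arrays differed from each other and its interval ran from -1.21 to 0.16.

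**Figure D2:**
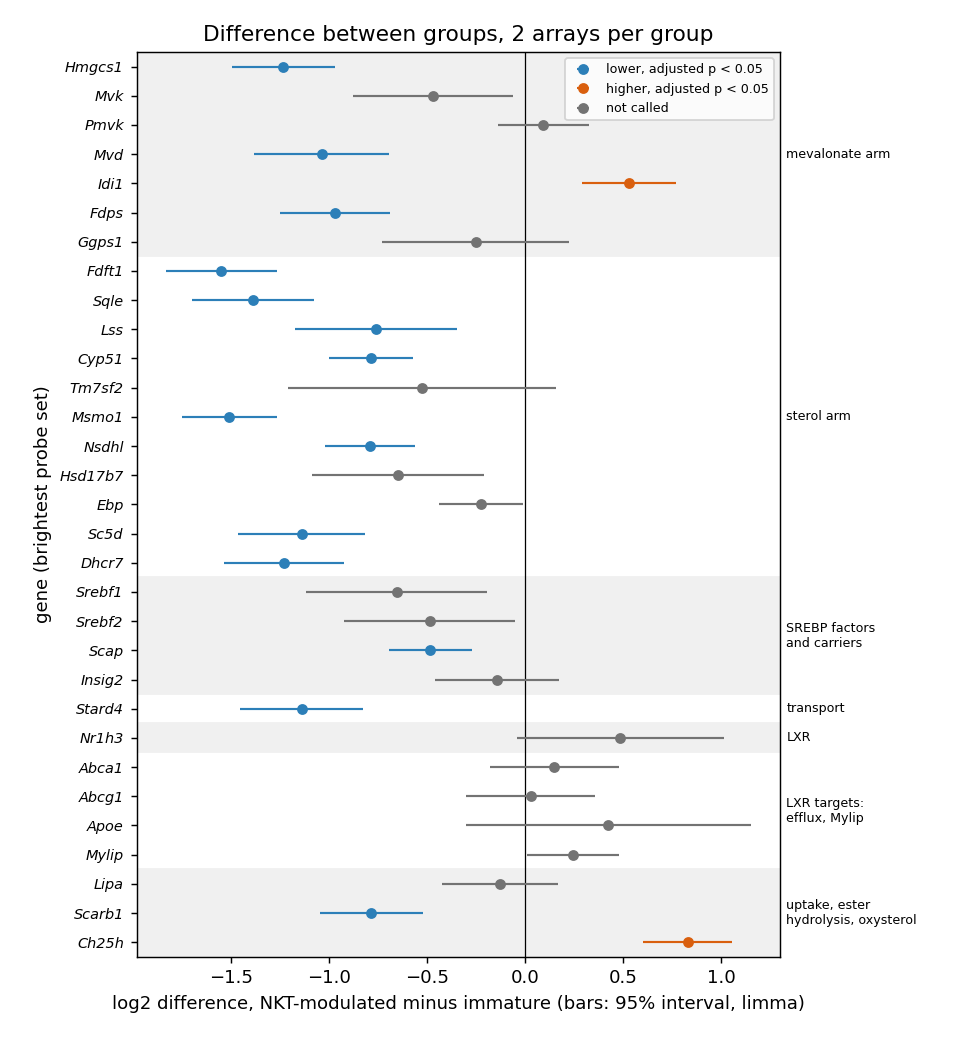
Log2 difference of each member, NKT-modulated minus immature, with its 95% interval from the limma fit (2 arrays per group). The 14 members that fell (blue) are mostly sterol enzymes, Idi1 and Ch25h (orange) rose, and the intervals of Abca1, Abcg1 and Apoe span 0.

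Promoter sequence is shown for 3 enzymes that moved: Hmgcs1, the one measured member whose window held a sterol response element core, Msmo1 and Idi1, the enzyme that rose. Msmo1 and Idi1 were chosen after their values were seen. RefSeq promoter windows (GRCm38.p6, 250 bases before to 50 after a start) matched 25 of 31 measured members, 7 of them with several windows. Shown are the 250 bases before the start on the gene's strand, chr13:119690101-119690350 (plus strand), chr8:64733579-64733828 (minus strand) and chr13:8885356-8885605 (plus strand). Capitals mark TCACNCCAC or CACCCCAC, cores of the SREBP binding element, and ATTGG, the inverted CCAAT box of the factor NF-Y, which reads CCAAT on the other strand.
Hmgcs1: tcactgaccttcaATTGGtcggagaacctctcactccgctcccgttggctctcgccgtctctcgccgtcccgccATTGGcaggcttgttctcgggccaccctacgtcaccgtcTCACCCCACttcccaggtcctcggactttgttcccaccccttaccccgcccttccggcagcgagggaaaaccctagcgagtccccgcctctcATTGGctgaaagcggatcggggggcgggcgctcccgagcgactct
Msmo1: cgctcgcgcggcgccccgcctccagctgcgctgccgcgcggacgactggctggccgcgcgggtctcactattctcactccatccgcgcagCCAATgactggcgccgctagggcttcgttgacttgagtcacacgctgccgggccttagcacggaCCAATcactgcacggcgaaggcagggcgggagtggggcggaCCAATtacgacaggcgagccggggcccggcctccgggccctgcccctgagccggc
Idi1: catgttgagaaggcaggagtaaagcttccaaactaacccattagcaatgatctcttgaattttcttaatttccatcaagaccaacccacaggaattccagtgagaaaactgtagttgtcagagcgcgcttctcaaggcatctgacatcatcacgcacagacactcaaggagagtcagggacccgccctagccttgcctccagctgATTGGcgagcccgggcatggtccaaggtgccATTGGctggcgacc

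In Hmgcs1 the core stood at 137 bases before the start, and the TCACNCCAC and CACCCCAC matches there overlap. Either core was found in 4.67% of 9893 genes of the array with a window, in 1 of 14 SREBP2 targets and in 0 of 4 LXR targets. ATTGG or its complement was found in 14 of 14 SREBP2 targets, in 2 of 4 LXR targets, and in 42.3% of those 9893 genes. Of the 14, 8 fell, 1 rose and 5 were not called, beside 7.63% of all genes lower and 6.35% higher. Idi1 thus carries ATTGG, as do these 8 and the 5 not called. The SREBP2 targets Fdft1, Sqle, Fdps and Stard4, which also fell, had no window and were not searched. The GC box GGGCGG was in 13 of the 14 (61.0% of array genes), the E-box CACGTG in 3 (10.8%), and the perfect DR4 repeat of the LXR element in 0 of 14 SREBP2 and 0 of 4 LXR targets (0.0152% of 32851 windows). Both strands were searched, no mismatch was allowed, and a match is a string of letters rather than a shown binding site.

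Among the genes that control the pathway, Scap fell and the others were not called. Scap, the escort of the SREBPs, had signals of 1393 and 1545 on the immature arrays, against 971 and 963 on the NKT-modulated ones. It fell by 0.48 ± 0.09 (adjusted p = 0.0168), with no overlap, but the call was lost on leaving out any 1 of the 4 arrays (adjusted p from 0.0587 to 0.0954) and without the intensity trend (adjusted p = 0.106). Srebf2, the gene of SREBP2, had 666 and 689 against 502 and 350.0 and a difference of -0.49 ± 0.18 (adjusted p = 0.138). Srebf1 encodes the SREBP of fatty acid genes and is itself an LXR target. Its signals were 1218 and 937 on the immature arrays, against 583 and 621 on the NKT-modulated ones, a difference of -0.66 ± 0.19 (adjusted p = 0.0745). It was called as lower without further normalization (adjusted p = 0.0165) and among the brighter probe sets (adjusted p = 0.0289). Over the 14 alternatives the Srebf1 difference ran from -0.95, without immature replicate 2, to -0.38. Insig2 had 569 and 601 against 431 and 493, and its 95% interval ran from -0.46 to 0.17.

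Sterol carriage and uptake genes were lower in part. Stard4, a soluble protein that moves cholesterol between membranes and is an SREBP2 target, had signals of 1122 and 1069 on the immature arrays, against 415 and 453 on the NKT-modulated ones. It fell by 1.14 ± 0.13 (adjusted p = 0.00316), or 2.21-fold. Scarb1, the HDL receptor SR-BI, had 1171 and 1493 against 673 and 707 and fell by 0.79 ± 0.11 (adjusted p = 0.00632); without the intensity trend it had adjusted p = 0.0563. All 3 Scarb1 probe sets fell, with differences of -0.79, -0.63 and -0.61, though the brightest is of a design that may bind other transcripts. Lipa, the lysosomal lipase that frees cholesterol from its esters, had 6161 and 6032 against 5297 and 6183, which overlapped, with an interval of -0.42 to 0.17.

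No efflux gene was called. Abca1, the transporter that loads cholesterol onto apolipoprotein A-I, had signals of 1146 and 1649 on the immature arrays, against 1390.0 and 1451 on the NKT-modulated ones. The groups overlapped, and the difference was 0.15 ± 0.13 (adjusted p = 0.539), with a 95% interval of -0.18 to 0.48. Abcg1, which exports cholesterol to HDL, had 2971 and 3612 against 2982 and 3733, a difference of 0.03 ± 0.14 and an interval of -0.30 to 0.36. For these 2 transporters the interval does not reach the size of the falls of Hmgcs1 or Fdft1, and changes of up to the interval's ends remain possible. Apoe, the apolipoprotein of efflux and uptake, had 331 and 666 against 459.6 and 676; its arrays differed within both groups and its interval was -0.30 to 1.15. Mylip, the ubiquitin ligase IDOL that degrades lipoprotein receptors, had 871 and 923 against 983 and 947 and a difference of 0.24 ± 0.10 (adjusted p = 0.165). Its groups did not overlap, as was true of 18.2% of all genes on the higher side, and its 95% interval was 0.01 to 0.48, above 0 before adjustment. The receptor gene Nr1h3 (LXR alpha) was dim, with 113 and 100.3 against 133 and 143, a difference of 0.49 ± 0.22 (adjusted p = 0.210).

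Ch25h rose. It encodes a hydroxylase that turns cholesterol into an oxysterol which blocks SREBP activation and binds LXR, and it is known as an interferon-induced gene. Its signals were 1468 and 1870.1 on the immature arrays, against 2839 and 2843 on the NKT-modulated ones. It rose by 0.83 ± 0.09 (adjusted p = 0.00302), or 1.78-fold, with no overlap, and 658 of the 12384 genes had a higher difference. In the same arrays 16 of 18 interferon response genes were called higher and 0 lower (median 2.08); Irgm1, an interferon-induced GTPase gene, rose by 3.07 ± 0.10 (adjusted p = 3.51e-05). Cell cycle genes fell, 14 of 17 with 0 rising and a median of -0.84, among them the helicase gene Mcm7, which fell by 1.32 ± 0.09 (adjusted p = 0.000586). Over all genes 6.35% were called higher and 7.63% lower. The part of either list in the sterol values was not tested.

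Several probe sets per gene allowed a check within the arrays. The 31 genes had 60 probe sets, and 17 genes had more than 1. Of 17 further probe sets of called members, 8 were called in the same direction as the brightest and 0 in the opposite one, with adjustment over all 22626 probe sets, of which 5.70% were lower and 5.36% higher. The 8 were among the 10 with a mean signal of at least 100, which all had the sign of the brightest; of the 7 dimmer ones 0 were called. All 4 Hmgcs1 probe sets fell, with differences of -1.24, -1.33, -1.50 and -1.08. Fdft1 had -1.55 and -0.98 on its brighter pair, both called lower, so that the size of its fall depends on the probe set. The brighter of these is of a design that may bind other transcripts.

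**Figure D3:**
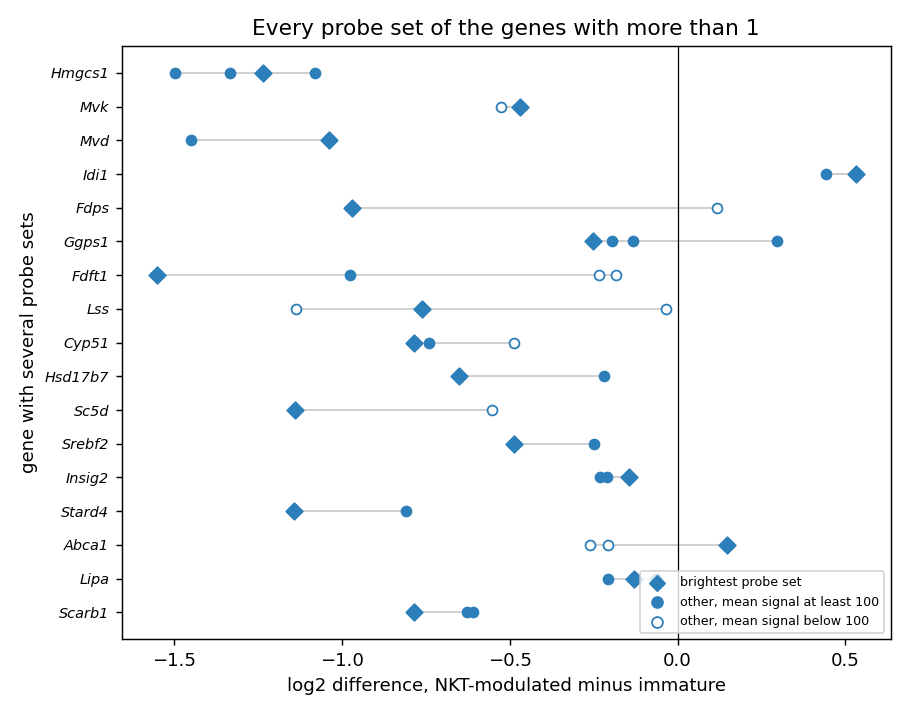
Log2 difference, NKT-modulated minus immature, of every probe set of the 17 members with more than 1. Diamonds mark the brightest, filled circles others with a mean signal of at least 100 and open circles dimmer ones. The open circles lie nearer 0 than the brightest for Fdps, Fdft1, Cyp51 and Sc5d. They lie farther from 0 for Mvk (-0.53 against -0.47), and for Lss on either side of the brightest (-1.14 and -0.04 against -0.76). Those of Abca1 (-0.21 and -0.26) lie on the other side of 0 from the brightest (0.15).

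Fatty acid synthesis genes, which lie outside the membership, were also lower. Of 13 measured fatty acid synthesis genes under SREBP control, 8 fell and 0 rose, with a median of -0.78. Among all genes 7.63% were lower and 6.35% higher, with a median of -0.04. Fads1 and Scd2, fatty acid desaturases, had differences of -2.04 ± 0.12 (adjusted p = 0.000365) and -1.02 ± 0.09 (adjusted p = 0.00139). The elongase genes Elovl5 and Elovl6 had -1.45 ± 0.11 (adjusted p = 0.000746) and -1.45 ± 0.14 (adjusted p = 0.00180). Fads1 had signals of 1282 and 1255 on the immature arrays, against 259 and 268 on the NKT-modulated ones.

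Enzymes that use isoprenoids for protein prenylation or dolichol were not called in 9 of 9 measured cases by limma, beside 7.63% of all genes called lower and 6.35% higher. At an unadjusted p under 0.05 the count was 0 of 9, beside 2062 lower and 1429 higher among all 12384 genes. With so few genes, the lack of calls does not show that this list was spared. Its median was -0.10, beside -0.04 over all genes, with 7 of the 9 below 0 and 2 above. Dhdds, of dolichol synthesis, had a difference of -0.34 ± 0.15 (adjusted p = 0.216). Of 9 further LXR targets 2 rose and 0 fell, with a median of 0.12, beside 6.35% of all genes called higher. These were Mertk, a receptor for apoptotic cells that is also in the macrophage list, by 1.09 ± 0.09 (adjusted p = 0.00111), and Ttc39b by 0.84 ± 0.14 (adjusted p = 0.0124). Pltp, a phospholipid transfer protein, had 0.35 ± 0.13 (adjusted p = 0.127). Smpdl3a went the other way, with -0.22 ± 0.08 (adjusted p = 0.131), and 3 of the 9 had a difference below 0.

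Other genes of lipoprotein uptake and sterol trafficking were mostly not called, with 2 of 8 lower, beside 7.63% of all genes. Msr1, a scavenger receptor, fell by 0.53 ± 0.08 (adjusted p = 0.00960) and Lrp1, a lipoprotein receptor, fell by 0.61 ± 0.11 (adjusted p = 0.0178), whereas the scavenger receptor gene Cd36, named outside the rule, had -0.01 ± 0.09 (adjusted p = 0.961). Of 4 oxysterol enzymes 1 was called, Cyp27a1, the sterol hydroxylase of mitochondria, which fell by 1.48 ± 0.33 (adjusted p = 0.0337). Its signals were 435 and 393 on the immature arrays, against 86.6 and 165 on the NKT-modulated ones, so that it went against Ch25h, which makes another oxysterol.

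**Figure D4:**
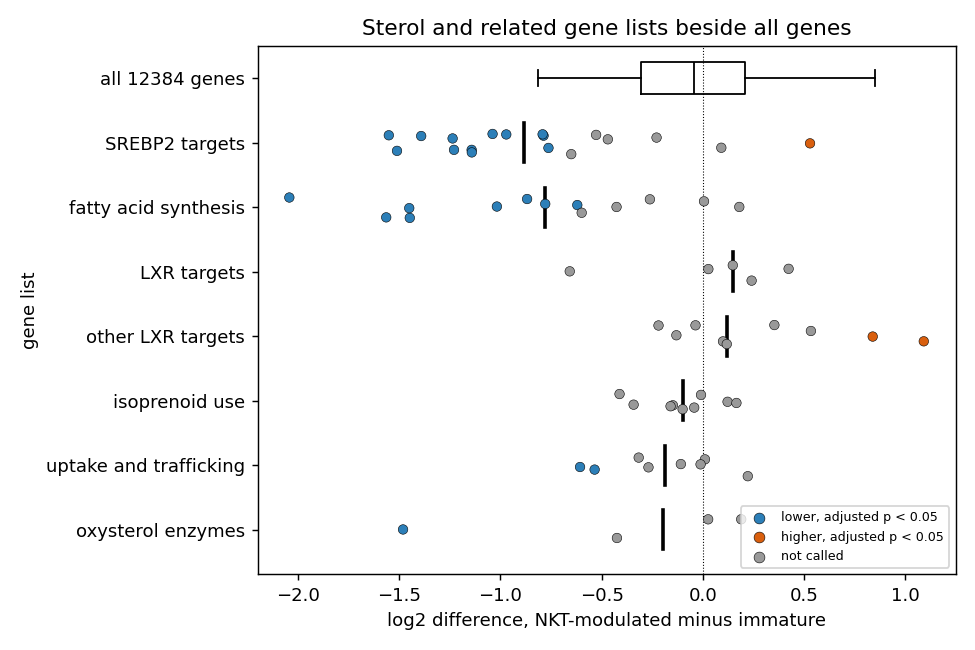
Log2 difference, NKT-modulated minus immature, of each measured gene by list, with black bars at list medians; the box shows the quartiles of all 12384 genes and its whiskers the percentiles 5 and 95. SREBP2 targets (median -0.88) and fatty acid synthesis genes (median -0.78) lie left of most genes, and LXR targets (median 0.15) lie within the box or near it, apart from Srebf1.

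The balance over all genes moved with the scaling. Of called genes 787 were higher and 945 lower (45.4% higher), against 33.8% higher without further normalization, 53.4% after cyclic loess and 57.3% after median scaling. Under these alternatives 2 members were higher, with 16, 14 and 14 falls in that order, and the median of SREBP2 targets was -1.04, -0.82 and -0.85. Among all 12384 genes the same alternatives called 586, 899 and 949 higher and 1150, 785 and 708 lower.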

How the data were processed

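RNA of 2 immature and 2 NKT-modulated DC samples was measured on Affymetrix mouse arrays; the deposited values are linear intensities, 1 per probe set and array. The authors used GCOS, per the submitters' processing notes; the summary method, scaling and software version were not given in the sources used here, nor were detection calls used. The 64 control probe sets were left out of 22690, and 22626 were tested. Names came from the platform annotation, updated by gene ID through RefSeq (GRCm38.p6): 20380 probe sets had 1 symbol, 691 several and 1555 none, giving 12384 genes, each by its brightest probe set. Array quartiles differed by 0.27 on the log2 scale, over the limit of 0.1, so log2(signal + 16) was quantile normalized; the pseudocount of 16 understates changes of dim genes. The comparison was made in R 4.3.3 with limma 3.58.1 (lmFit, eBayes with an intensity trend, two-sided; 2 residual and 4.13 prior degrees of freedom), fitted over all probe sets and adjusted by Benjamini-Hochberg over genes, with a threshold of 0.05. The fit was tested on simulated data for this comparison over 22626 probe sets: 26% of log2 changes of 1 and 67.6% of changes of 2 were recovered, and 23 of 491 calls were false. Far fewer probe sets were changed in the simulation than were called in the data, so these shares hold for that setting only.

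The members and lists were chosen with earlier results of these data known, so lists are described by counts and medians, with no test. All members are named. Of each other list, up to 4 genes with the smallest p were named, or up to 2 where none was called. Cd36 and the cell type markers Itgax, Cd74, Csf1r, Flt3 and Cd3d were named outside this rule, after their values were seen. Promoters were to be shown for up to 6 members holding a sterol response element core, which 1 did. The few arrays limit the precision.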

Additional observations from a re-analysis of the deposited data

How the results depend on the processing

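Each member was recomputed under 14 alternatives (3 normalizations, 2 pseudocounts, a signal filter, no intensity trend, the mean of a gene's probe sets, adjustment over all probe sets, a threshold of 0.001 and leaving out each array); without 1 array, the lone array of a group is assumed to vary like the others. The 16 called members kept their direction in all 224 recomputed values and lost the call in 31, of which 14 came from the stricter threshold alone. At an adjusted p under 0.001, 0 members were higher and 2 lower, both SREBP2 targets (Fdft1 and Msmo1). Without the intensity trend 1 member was higher and 10 lower, all 10 SREBP2 targets. Over the mean of all probe sets 11 members were lower, 9 of them SREBP2 targets. Among all 12384 genes these settings called 137, 430 and 766 higher and 29, 333 and 900 lower, in that order. On leaving out 1 array, members higher numbered 1 to 2, members lower 12 to 13 and SREBP2 targets lower 11 to 12; LXR targets higher numbered 0 in each case. The median of SREBP2 targets was -1.04 without further normalization and -0.70 over the mean of all probe sets, where Fdps (adjusted p = 0.230) and Sc5d (adjusted p = 0.0666) lost their calls when averaged with a dim probe set; it was -0.96 to -0.86 without 1 array. The median of LXR targets was -0.03 to 0.21 without 1 array. Nsdhl had adjusted p = 0.0504 without the trend. Members without a call changed sign 7 times: Pmvk to -0.049 without further normalization, Lipa to 0.11 after median scaling and 0.029 without NKT-modulated replicate 1 (-0.29 to 0.029 without 1 array), Abca1 to -0.11 over the mean of its probe sets and -0.030 without immature replicate 1 (-0.030 to 0.33 without 1 array), and Abcg1 to -0.033 without immature replicate 1 and -0.16 without NKT-modulated replicate 2 (-0.16 to 0.21 without 1 array). The cause of these changes was not tested. No paired analysis was possible because the labels give the groups no shared replicate numbers. The simulation recovered 26% of log2 changes of 1. It held far fewer changed probe sets than were called in these data, and probe sets of every brightness. That share therefore does not give the recovery for the members. An uncalled member is still not shown to be unchanged.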
